A study of Mus musculus with 9 samples.

Results

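The response described here is that of gastric tumours to interleukin 6 (IL6), read against vehicle (PBS) in mice of the same genotype. All animals, 6 to 8 weeks old and of mixed 129/BL6 background, were gp130Y575F/F, in which both copies of the cytokine receptor subunit gp130 carry a tyrosine-to-phenylalanine exchange. Each received 1 intraperitoneal injection, either 200 µl of PBS or 5 µg of recombinant human IL6 in 200 µl of PBS, and the tumour was taken 60 min later. There were 3 mice and 3 arrays per group, so 6 of the 9 arrays of the series entered the comparison, and the other 3, from mice given IL11, are quoted only where stated. No wild-type mice and no untreated stomach were among the arrays used, so the IL6 response is that of the mutant tumour alone. Probes were included when detected on at least 3 of the 6 arrays, which held for 17903 of 45281 probes. They stood for 12380 of the 28704 genes named on the array, each represented by its brightest kept probe.

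IL6 binds its receptor IL6RA and brings together gp130, the product of Il6st, which several related cytokines share. The kinases bound to gp130 then phosphorylate the transcription factor STAT3, which enters the nucleus and switches on target genes within minutes, among them Socs3, whose product returns to the receptor complex and shuts the signal down. In the gp130Y575F/F mouse the exchange removes the docking site for SOCS3 and for the phosphatase SHP2, signalling through STAT3 is prolonged, and adenomas grow in the glandular stomach.

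Before normalization the mean signal of a probe lay between 300 and 419 for PBS and between 398 and 652 for IL6, and each array detected 37.4% to 40.6% of its probes. Markers of gastric mucous epithelium were present throughout, with a mean log2 signal of 12.44 to 13.48 on the PBS and IL6 arrays for 6 measured genes of pit cells, and 10.67 to 11.34 for 4 genes of neck cells. The PBS tumours were less alike than the IL6 tumours. The median standard deviation per gene was 0.33 on the log2 scale among PBS arrays and 0.22 among IL6 arrays, and arrays of a group correlated over genes at 0.929 to 0.943 for PBS but 0.977 to 0.984 for IL6. The first principal component of the 6 PBS and IL6 arrays held 47.9% of the variance and set PBS replicate 2 (66.3) and PBS replicate 3 (26.8) apart from the other 4 arrays (-30.6 to -15.4), so differences against PBS replicate 1 alone are quoted below where they bear on a result.

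Only 2 of 12380 genes (0.0162%) passed an adjusted p of 0.05 in limma on the 6 arrays, and both rose with IL6. Hspa1b, which encodes an inducible Hsp70 chaperone, had log2 signals of 6.10, 5.62 and 5.96 on the PBS arrays and 9.54, 8.80 and 9.46 on the IL6 arrays. Every IL6 array lay more than 2 log2 units above every PBS array, a rise of 3.37 ± 0.26 (SE, n = 3 per group) or 10.3-fold (95% confidence interval 6.76 to 15.8, adjusted p = 0.0296 in limma). Dnajb1, which encodes the Hsp40 co-chaperone of Hsp70, stood at 11.44, 11.24 and 11.15 with PBS and at 13.43, 13.32 and 13.34 with IL6. The IL6 arrays agreed within a narrow band, and the rise was 2.09 ± 0.18 (SE, n = 3 per group) or 4.25-fold (3.16 to 5.71, adjusted p = 0.0333 in limma). Against PBS replicate 1 alone the differences were 3.17 for Hspa1b and 1.93 for Dnajb1. Neither call held when any of PBS replicate 2, PBS replicate 3, IL6 replicate 1 or IL6 replicate 3 was left out, and without IL6 replicate 2 Hspa1b was the only gene called. Without PBS replicate 1, 30 genes passed, 28 higher and 2 lower, and without PBS replicate 3 the 2 genes that passed were both lower.

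Because so few genes passed, the wider response is described in 2 further ways. The first is a fit in which the 3 IL11 arrays join the estimate of the spread, where 36 genes (0.291%) passed, 32 higher (0.258%) and 4 lower (0.0323%) with IL6. It assumes the same spread in each group. The IL11 arrays were the tightest, with a median standard deviation per gene of 0.18 against 0.33 for PBS, so the PBS spread may be understated there. The count of 36 rested on single arrays. Leaving out PBS replicates 1, 2 and 3 in turn gave 567, 22 and 35 genes, leaving out the IL6 replicates in the same order gave 1, 24 and 3, and leaving out an IL11 array gave 21, 21 and 22. The second is a rule of size with no test, met by genes whose IL6 and PBS arrays did not overlap and whose means differed at least 2-fold. It held for 252 genes (2.04%), of which 166 (1.34%) were higher and 86 (0.695%) lower with IL6. It held for 1003 genes without PBS replicate 1 and for 464 without IL6 replicate 2. Groups that did not overlap, at any size of difference, were found for 2165 genes (17.5%), 1023 of them higher (8.26%) and 1142 lower (9.22%) with IL6, and an unadjusted p under 0.05 in limma for 1275 (10.3%), 653 higher and 622 lower. In what follows, rose and fell are kept for the 2 genes above, and a gene said to have passed the 9-array fit had an adjusted p under 0.05 there. Counts of list members meeting the size rule are to be read beside the 1.34% higher and 0.695% lower of all genes.

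The balance of higher to lower genes followed the scaling of the arrays. With quantile normalization, as used throughout, 65.9% of the genes meeting the size rule were higher with IL6 and the median difference of all genes was -0.03 on the log2 scale. With median scaling over all probes that median was 0.38, and 1047 genes were higher and 10 lower (99.1% higher). Without any scaling it was 0.70, with 2563 higher and 2 lower (99.9% higher). With each array centred on the genes tested, 132 were higher and 197 lower (40.1% higher). The differences below are relative to the quantile scale, and the plot of difference against p shows how they are spread. Each difference below whose sign reversed without scaling turned positive but stayed under 0.70, the median of all genes.

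**Figure D1:**
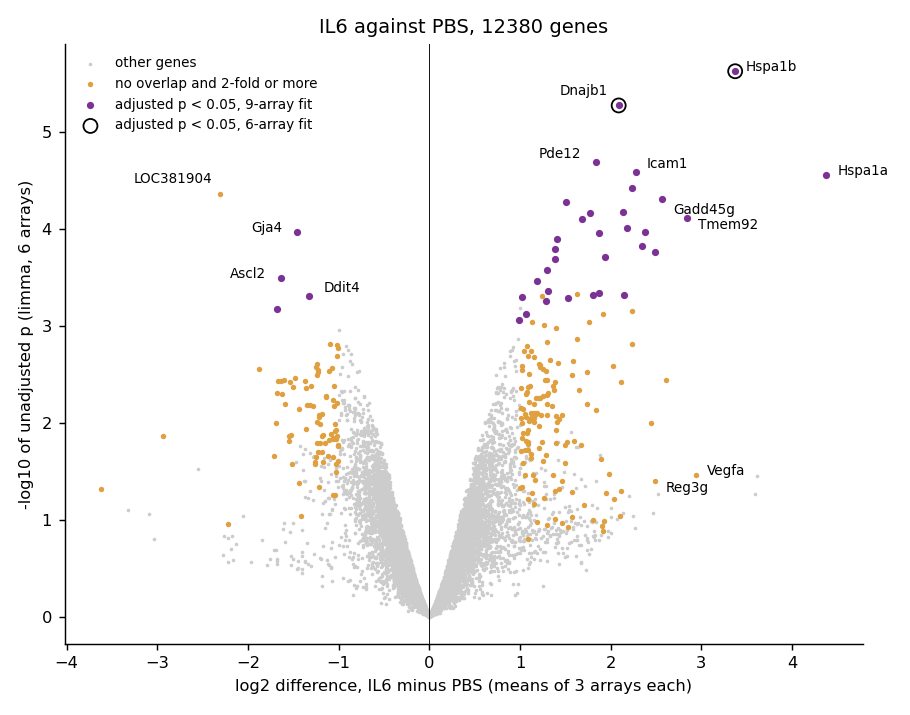
Log2 difference, IL6 minus PBS, of each of 12380 genes (horizontal axis) against the negative log10 of its unadjusted p in limma on 6 arrays (vertical axis). Orange points are genes whose groups did not overlap and differed at least 2-fold, purple points the 36 genes that passed the 9-array fit, and the 2 circled points, Hspa1b and Dnajb1, the genes that passed on the 6 arrays.

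Among the components of the IL6 pathway, the receptor of a sister cytokine and the feedback inhibitor stood out. Osmr, which encodes the signalling subunit that pairs with gp130 to bind oncostatin M, had log2 signals of 8.91, 8.35 and 7.89 with PBS and 10.36, 9.85 and 10.54 with IL6. All IL6 arrays were above all PBS arrays by a mean of 1.87 ± 0.32 (SE, n = 3 per group), 3.64-fold, and Osmr passed the 9-array fit (adjusted p = 0.0314) but not the 6-array fit (adjusted p = 0.184), with the call held in 2 of 9 repeats that left out 1 array. The shared subunit Il6st was 0.38 ± 0.19 higher without overlap, whereas the ligand-binding chains Il6ra and Il11ra1 differed by -0.40 ± 0.28 and -0.47 ± 0.27, with overlapping arrays. Both negative signs turned positive with median scaling (0.025 and 0.0257), where the median of all genes was 0.38. Against PBS replicate 1, Il11ra1 differed by 0.08. Further kept probes gave 0.19 for Il11ra1 and 0.05 and -0.10 for Il6ra. The Il6 transcript had no kept probe, since its 1 probe was detected on 1 of 6 arrays, and those of Lif, Cntf and Clcf1 had none either. Il11 was measured but spread over 9.70, 7.02 and 5.24 with PBS and 9.51, 5.95 and 8.53 with IL6, which overlapped.

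Downstream, 0 of 9 measured JAK and STAT genes met the size rule, though Jak2, a kinase bound to gp130, was 0.83 ± 0.20 higher (adjusted p = 0.388), Stat3 0.66 ± 0.27 higher (adjusted p = 0.472) and Jak1 0.52 ± 0.26 higher (adjusted p = 0.515), each without overlap. Further kept probes gave 0.35 for Jak2, 0.11 and 0.54 for Stat3 and -0.39 for Jak1. Of 14 measured inhibitors of cytokine signalling, 2 met it. Socs3 had log2 signals of 12.16, 11.58 and 10.82 with PBS and 13.76, 13.89 and 13.95 with IL6. The IL6 values were nearly equal while those with PBS ran over more than 1 log2 unit, and the difference was 2.35 ± 0.33 (adjusted p = 0.0998 on 6 arrays and 0.0122 on 9). Cish, a SOCS family inhibitor best known as a STAT5 target, was 1.08 ± 0.27 higher (adjusted p = 0.41). Socs5 was 0.88 higher without overlap, and the phosphatase gene Ptpn6 differed by -0.66, or by 0.06 from PBS replicate 1.

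The list of STAT3 targets gives the reference for the size of other groups. Of 25 measured members, 13 met the size rule, all higher, where 1.34% of all genes were. Not all were of that size against PBS replicate 1, from which Mcl1 and Fos differed by 0.44 and 0.16. The list's median difference was 1.13 on the log2 scale against -0.03 for all genes. The median was 0.61 against PBS replicate 1 alone. Pim3, a survival kinase gene, was 2.23 higher, Bcl3, of a nuclear IκB protein, 1.87 and Bcl6, of a transcriptional repressor, 1.81. All 3 passed the 9-array fit, with the calls held in 7, 6 and 2 of 9 repeats that left out 1 array. Cebpb, the transcription factor first described as nuclear factor for IL6, was 1.13 higher (adjusted p = 0.261). Of 17 measured heat shock genes, 6 met the size rule, all higher. The list's median was 0.79, or 0.90 against PBS replicate 1. Hsp90aa1, among the 6, was 0.37 above that array. Hspa1a, the near-identical neighbour of Hspa1b, whose probes may share target, was 4.38 higher, and Hsph1, the Hsp110 gene listed on the array as HSP105, 2.38 higher.

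Among the other genes that passed the 9-array fit, the largest difference was that of Tmem92, a membrane protein gene of unsettled function. Its log2 signals were 5.91, 4.57 and 5.28 with PBS, where 2 of 3 arrays detected it, and 7.68, 8.28 and 8.32 with IL6. The groups were far apart, 2.84 ± 0.36 on the log2 scale or 7.16-fold (3.97 to 12.9), with adjusted p values of 0.0758 on 6 arrays and 0.0122 on 9. Gadd45g, whose product activates the stress kinases p38 and JNK, followed at 11.35, 10.24 and 11.04 with PBS and 13.20, 13.52 and 13.60 with IL6. It was 5.92-fold higher (3.59 to 9.76), its second probe gave 2.88 on the log2 scale against 2.57 for the first, and it passed the 9-array fit with and without PBS replicates 2 and 3. Icam1, the adhesion molecule by which leukocytes hold to endothelium and epithelium, stood at 8.92, 8.19 and 8.69 with PBS and 11.12, 10.83 and 10.70 with IL6. That was 4.85-fold higher (3.24 to 7.26), and Icam1 passed the 9-array fit in 8 of 9 repeats that left out 1 array. Icam1 was the 1 member of 18 measured genes on the NF-kB list to meet the size rule, and the median of that list was 0.11. Bcl3, described above, and Tnip2, described below, also met the rule but are not on that list.

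Of 18 measured immediate early transcription factors, 4 met the size rule, all higher, where 1.34% of all genes were. The list's median was 0.53, or 0.17 against PBS replicate 1. Junb, Fos and Klf4 are on this list and on that of STAT3 targets. Csrnp1, of an axin-induced nuclear protein, was 1.53 ± 0.26 higher and passed the 9-array fit. Its call held in 2 of 9 repeats that left out 1 array. Junb was 1.15 ± 0.31 higher and Fosl2 0.82 ± 0.20 higher, neither past a threshold, and Klf2, the Krüppel-like factor of quiescent endothelium and lymphocytes, was lower in every array. Its log2 signals were 7.93, 7.88 and 7.94 with PBS and 7.45, 7.32 and 7.38 with IL6, tight groups that lay apart by a difference of -0.53 (adjusted p = 0.45), whose sign reversed without scaling.

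Zfp36, the gene of tristetraprolin, which binds AU-rich elements and speeds the decay of cytokine mRNAs, had log2 signals of 10.55, 10.12 and 9.95 with PBS and 11.97, 11.83 and 11.85 with IL6. It was 3.21-fold higher (2.26 to 4.55) and passed the 9-array fit (adjusted p = 0.00641), while the other 10 measured genes of mRNA decay did not meet the size rule. Of 12 measured MAPK phosphatases and genes of ERK feedback 1 met the size rule, with a median of 0.38, or 0.08 against PBS replicate 1. That gene, Dusp6, the phosphatase that switches off ERK, was 1.22 ± 0.28 higher without overlap, as were Areg (1.18 ± 0.33) and Hbegf (0.78 ± 0.25), which encode ligands of the EGF receptor. None of these 3 passed in either fit (adjusted p = 0.108, 0.162 and 0.198 on 9 arrays). Against PBS replicate 1 the differences were 0.66, 0.47 and 0.49.

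Genes with other roles in innate defence were also among those that passed the 9-array fit. Tnip2, of a protein that binds the ubiquitin editor A20 and restrains NF-kB, had log2 signals of 7.22, 7.21 and 7.27 with PBS and 8.23, 8.17 and 8.33 with IL6, 2.02-fold apart (1.52 to 2.68). Both groups were tight and did not overlap, and a second, dimmer probe gave 0.15. Tlr4, the lipopolysaccharide receptor gene, was 0.98 ± 0.18 higher and its second probe 0.81. Sting1, of the cyclic dinucleotide sensor and listed on the array as 2610307O08RIK, stood at 6.18, 6.57 and 6.45 with PBS and 7.90, 7.80 and 7.63 with IL6. It was 1.38 ± 0.20 higher with no overlap. With 1 array left out in turn, the calls of Tnip2 and Tlr4 each held in 1 of 9 repeats, that of Sting1 in 3 and that of Pde12 in 8. Pde12, the gene of a phosphodiesterase that degrades the antiviral messenger 2-5A and listed as E430028B21RIK, had log2 signals of 8.50, 8.36 and 8.27 with PBS and 10.20, 10.03 and 10.41 with IL6. It was 3.57-fold higher (2.61 to 4.89), with no overlap, and its second kept probe gave 1.47.

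Members of the interferon list lay on both sides of zero. Of 20 measured members, 2 were higher and 1 lower by the size rule, where 1.34% and 0.695% of all genes were. The list's median was -0.28, or -0.03 against PBS replicate 1. The 2 higher were Irf8 and Sting1, of which Sting1, described above, passed the 9-array fit. The transcription factor genes Irf1 (0.95 ± 0.22, with 4 further kept probes at 0.68 to 1.03) and Irf8 (1.49 ± 0.49) were higher without overlap, while the interferon-stimulated genes Usp18 (-1.22), Isg15 (-0.82) and Irf7 (-0.65, a sign that reversed without scaling) were lower without overlap. None of these 5 passed in either fit, and the difference of Irf8 from PBS replicate 1 was 0.28. Of 12 measured chemokine genes, 0 were higher and 2 lower by the size rule, where 0.695% of all genes were lower. Cxcl9, which encodes an interferon-induced attractant of T cells, stood at 7.33, 8.21 and 6.76 with PBS and 6.15, 6.12 and 6.09 with IL6, a difference of -1.31 ± 0.35 (adjusted p = 0.417). Cxcl12, of a stromal chemokine, differed by -1.04 ± 0.31, or -0.43 from PBS replicate 1.

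Among secreted antimicrobial and acute phase genes, 3 of 15 measured members met the size rule, all higher, and 0 passed in either fit. As higher, 1.34% of all genes met that rule. Reg3a, a lectin gene, was detected on 1 of 3 PBS arrays (5.40, 4.59 and 4.86) and on all IL6 arrays (7.75, 6.31 and 7.48), 2.23 ± 0.40 higher (adjusted p = 0.224). Reg3g, its close relative, ran over 12.36, 7.81 and 10.79 with PBS and 13.08, 12.43 and 12.91 with IL6. Every IL6 array was above every PBS array, but the difference of 2.49 ± 1.00 became 0.44 against PBS replicate 1. Lbp, the lipopolysaccharide-binding protein of the acute phase, was 1.22 ± 0.27 higher (adjusted p = 0.38). The list's median was 0.43, but -0.21 against PBS replicate 1.

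Vegfa, of the angiogenic growth factor, and Mcl1, of an anti-apoptotic BCL2 relative, had 1 PBS array far below the others, as Reg3g did. That array enlarged the mean differences, though every IL6 array lay above every PBS array in both genes. Vegfa stood at 9.85, 5.00 and 9.29 with PBS, where 2 of 3 arrays detected it, and at 10.58, 11.16 and 11.21 with IL6, so that the difference was 2.94 ± 1.14 in all and 1.13 against PBS replicate 1. A second kept Vegfa probe, detected on all 6 arrays, gave 1.23. Mcl1 had 12.11, 8.09 and 11.35 with PBS and 12.45, 12.49 and 12.70 with IL6. In both genes PBS replicate 2 was the low array, and neither passed in either fit.

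**Figure D2:**
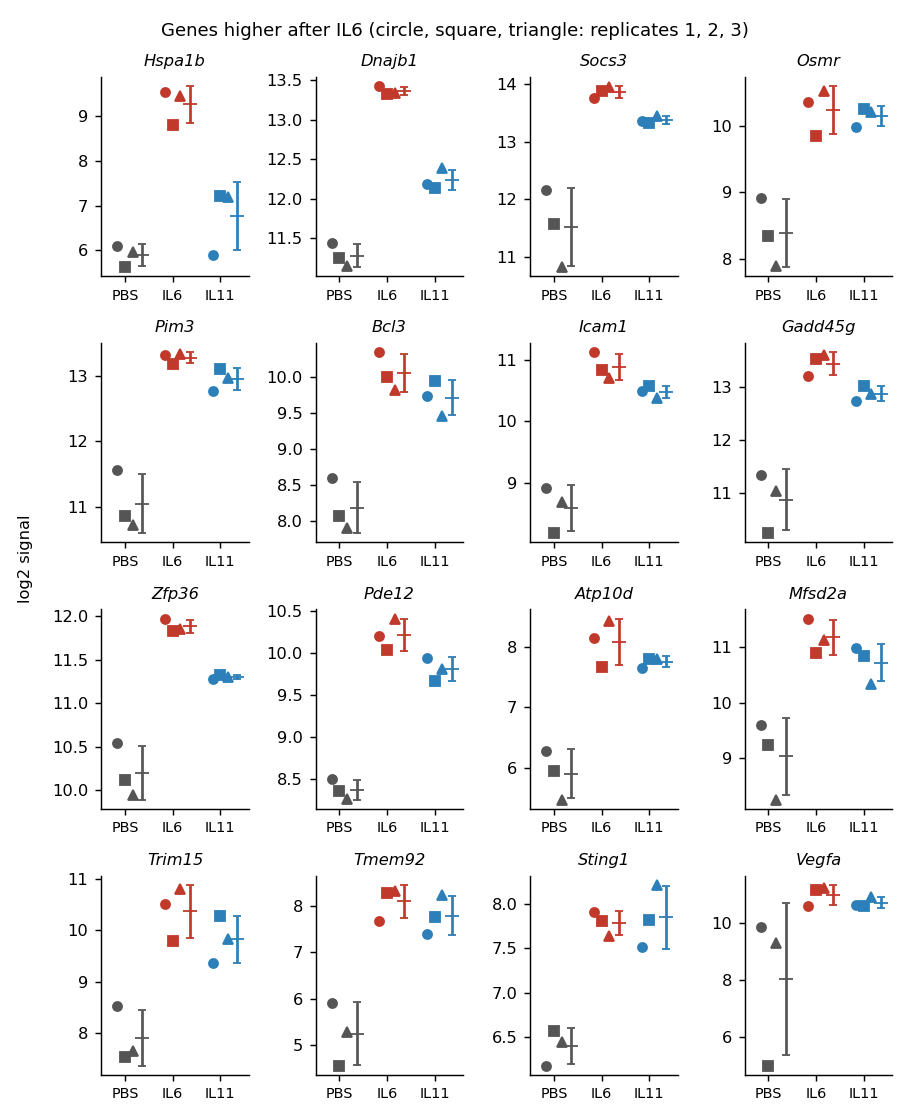
Log2 signal (vertical axes) of 16 genes that were higher after IL6, by array, for PBS, IL6 and IL11, with the mean and SD (n = 3) of each group as a bar beside the points. The IL6 points lie above all PBS points in each panel, and Vegfa shows the single low PBS array, at 5.00.

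Lipid transport gave 2 further genes. Atp10d, a P4-type ATPase that moves lipids between the leaflets of membranes, had log2 signals of 6.29, 5.94 and 5.48 with PBS and 8.14, 7.67 and 8.43 with IL6. The groups lay 4.54-fold apart (2.83 to 7.26). Mfsd2a, the carrier of lysophosphatidylcholine and with it of omega-3 fatty acids, listed as MFSD2, stood at 9.61, 9.24 and 8.26 with PBS and 11.52, 10.90 and 11.13 with IL6, 4.44-fold apart (2.45 to 8.02). Both passed the 9-array fit, with adjusted p of 0.00958 and 0.0428, in 7 and 2 of the 9 repeats. The remaining 9 measured flippases and lipid transporters did not meet the size rule, and the list's median was 0.10.

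Trim15 and Trim10, neighbouring members of the TRIM family of ubiquitin ligases, were both higher. Trim15 stood at 8.52, 7.52 and 7.64 with PBS and 10.52, 9.80 and 10.81 with IL6, 5.59-fold higher (3.12 to 10.02), and passed the 9-array fit. Its call held in 4 of 9 repeats that left out 1 array. Trim10 was 1.42 ± 0.32 higher without overlap (adjusted p = 0.14 on 9 arrays), with a second kept probe at 1.17. Of 25 measured family members these were the 2 that met the size rule, which 1.34% of all genes met as higher. The median of the family was 0.06.

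Other genes that passed the 9-array fit were Sbno2, of a nuclear corepressor induced by IL10 and STAT3 (1.93 ± 0.29 higher), Sh3bp2, of a signalling adaptor (2.84-fold), Itpkc, of an inositol trisphosphate kinase (1.39), Tha1, of a threonine aldolase (1.77), Sema6b, of a semaphorin (1.41), Fastkd3, of a mitochondrial RNA-binding protein (1.29), Gramd3 (2.13) and Lratd1 (1.30). With 1 array left out in turn, the calls of Sh3bp2, Itpkc, Tha1, Sema6b and Gramd3 held in 7 of 9 repeats. Those of Sbno2 and Fastkd3 held in 3 and that of Lratd1 in 2. Second kept probes gave 1.12 for Sbno2 and 0.25 for Gramd3. Of these, Tha1 also passed without PBS replicates 2 and 3, as did Dnajb1, Gadd45g, Icam1, Pim3 and Socs3. These 6 were the only ones of the 36 that did, among 11 calls in that fit, in which the lone PBS array is assumed to vary like the other groups. Ly6m, listed as 2010109I03RIK and of the Ly6 family of surface proteins, and Bnip5 were 2.61 ± 0.63 and 2.23 ± 0.46 higher and did not pass (adjusted p = 0.14 and 0.0819 on 9 arrays), with a second Ly6m probe at 1.18.

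The sequences upstream of the genes that passed the 9-array fit were searched because STAT3 binds a short palindrome. Promoter windows from 250 bases before to 50 after the annotated start were taken from RefSeq (GRCm38.p6), 1 per gene, and were at hand for 24 of the 32 higher genes and 3 of the 4 lower ones. The palindrome TTCNNNGAA, which reads alike on both strands, was found in the windows of 8 of the 24 higher genes (33.3%) and of 0 of the 3 lower genes, against 6.77% of 8434 tested genes with a window and 8.47% of 27025 windows in all. Among genes meeting the size rule it was in 20 of 115 higher (17.4%) and 3 of 56 lower (5.36%). The stricter TTCCNGGAA was in 3 of the 24, Icam1, Trim15 and Tnip2, and in 1.22% of tested genes. A match is a description of the letters and was not tested for binding. The genes were chosen after their values were seen, and STAT3 targets were among them. Bases are printed 5′ to 3′ on the strand of the gene and end at the start site or 30 bases past the palindrome, which is in capitals.
Trim15, chr17:36867211-36867460, minus strand, palindrome beginning 226 bases before the start: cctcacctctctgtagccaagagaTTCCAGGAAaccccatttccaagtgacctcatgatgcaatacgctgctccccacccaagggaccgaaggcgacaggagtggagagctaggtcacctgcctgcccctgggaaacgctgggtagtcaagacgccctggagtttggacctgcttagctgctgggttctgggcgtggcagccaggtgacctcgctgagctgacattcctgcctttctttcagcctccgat
Icam1, chr9:21015690-21015939, plus strand, beginning 42 bases before the start: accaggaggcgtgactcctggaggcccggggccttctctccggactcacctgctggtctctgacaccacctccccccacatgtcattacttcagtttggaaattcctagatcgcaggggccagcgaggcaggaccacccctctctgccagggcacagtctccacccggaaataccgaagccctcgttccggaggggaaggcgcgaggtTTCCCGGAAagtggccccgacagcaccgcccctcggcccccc
Socs3, chr11:117969482-117969550, minus strand, beginning 154 bases before the start: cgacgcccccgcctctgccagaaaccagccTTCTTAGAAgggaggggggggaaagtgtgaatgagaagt
Bcl6, chr16:23988932-23989000, minus strand, beginning 118 bases before the start: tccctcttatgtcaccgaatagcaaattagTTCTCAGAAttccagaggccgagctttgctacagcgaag
Sbno2, chr10:80102703-80102758, minus strand, beginning 26 bases before the start: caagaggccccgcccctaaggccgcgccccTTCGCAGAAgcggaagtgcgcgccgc
Zfp36, chr7:28379229-28379275, minus strand, beginning 17 bases before the start: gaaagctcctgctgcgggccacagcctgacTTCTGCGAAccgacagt
The other two matches lay after the start, TTCCACGAA in Csrnp1 and TTCCGGGAA in Tnip2. A further 5 motifs were searched on both strands: the AP-1 site TGACTCA, the CRE TGACGTCA, the E-box CACGTG, the NF-kB form GGGANTTTC and paired heat shock units, TTCNNGAA or GAANNTTC. Of the 24 windows, 1 held the AP-1 site, 0 the CRE, 3 the E-box, 0 the NF-kB form and 5 the paired heat shock units, against 3.9%, 3.36%, 10.2%, 1.07% and 11.4% of tested genes. The 5 were those of Hspa1a, Hspa1b, Hsph1, Fastkd3 and Tnip2. Among genes meeting the size rule, paired heat shock units were in 12 of 115 higher (10.4%) and 11 of 56 lower (19.6%). The window of Hspa1b held paired heat shock units and that of Dnajb1 held none of these letters.

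Of 19 measured genes of the unfolded protein response, 2 met the size rule and 17 were higher, with a median of 0.38, or 0.36 against PBS replicate 1. Hspa5, the endoplasmic reticulum Hsp70, was 1.46 ± 0.41 higher, detected on 2 of 3 PBS arrays, and 0.52 above PBS replicate 1, and Creld2 was 1.03 ± 0.28 higher (adjusted p = 0.417 for both). Hif1a, of the oxygen-regulated transcription factor, was 1.40 ± 0.41 higher (adjusted p = 0.42). The hypoxia list had a median of 0.23. Cdkn2d, of the cell cycle inhibitor p19INK4d, was 1.21 ± 0.27 higher and Eif1a, of a translation start-site factor, 1.02 ± 0.23 higher, both without overlap and both past no threshold (adjusted p = 0.38). Cell cycle genes had a median of 0.07 over 20 members, but -0.51 against PBS replicate 1, with 0 meeting the size rule. Their mean log2 signal ran from 7.86 to 9.09 with PBS and from 7.81 to 9.08 with IL6. The medians were 0.00 for 27 proteasome subunits, -0.11 for 26 genes of oxidative phosphorylation, -0.06 for 22 cytosolic ribosomal proteins and 0.08 for 15 glycolytic genes, all close to the -0.03 of all genes, and no member met the size rule.

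Genes of growth, the clock and junctions gave differences of which none passed in either fit. Of 16 measured genes of ribosome biogenesis and MYC targets 0 met the size rule, with a median of 0.34, or 0.14 against PBS replicate 1. Myc, the transcription factor gene that drives growth, was 0.67 ± 0.25 higher without overlap (adjusted p = 0.457), and Nop56, of a nucleolar protein needed for rRNA modification, 0.71 ± 0.20 higher (adjusted p = 0.42). Bhlhe40, a repressor of the circadian clock and the 1 member of 13 in its list to meet the size rule, was 1.94 ± 0.85 higher, but 0.33 above PBS replicate 1. Cldn12, of a claudin, was 1.89 ± 0.67 higher, but 0.41 above that array, and was the 1 member of 19 tight and adherens junction genes to meet the rule. Klf4, the Krüppel-like factor of differentiating epithelium, was 1.08 ± 0.69 higher and 0.21 above PBS replicate 1, with further probes at 0.73 and 0.65. The adjusted p values of these 3 were 0.487, 0.45 and 0.56. No gene of 20 measured chromatin deacetylases and demethylases met the size rule, where Sirt1 was 0.62 ± 0.21 higher (adjusted p = 0.45) and the list's median was 0.14.

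**Figure D3:**
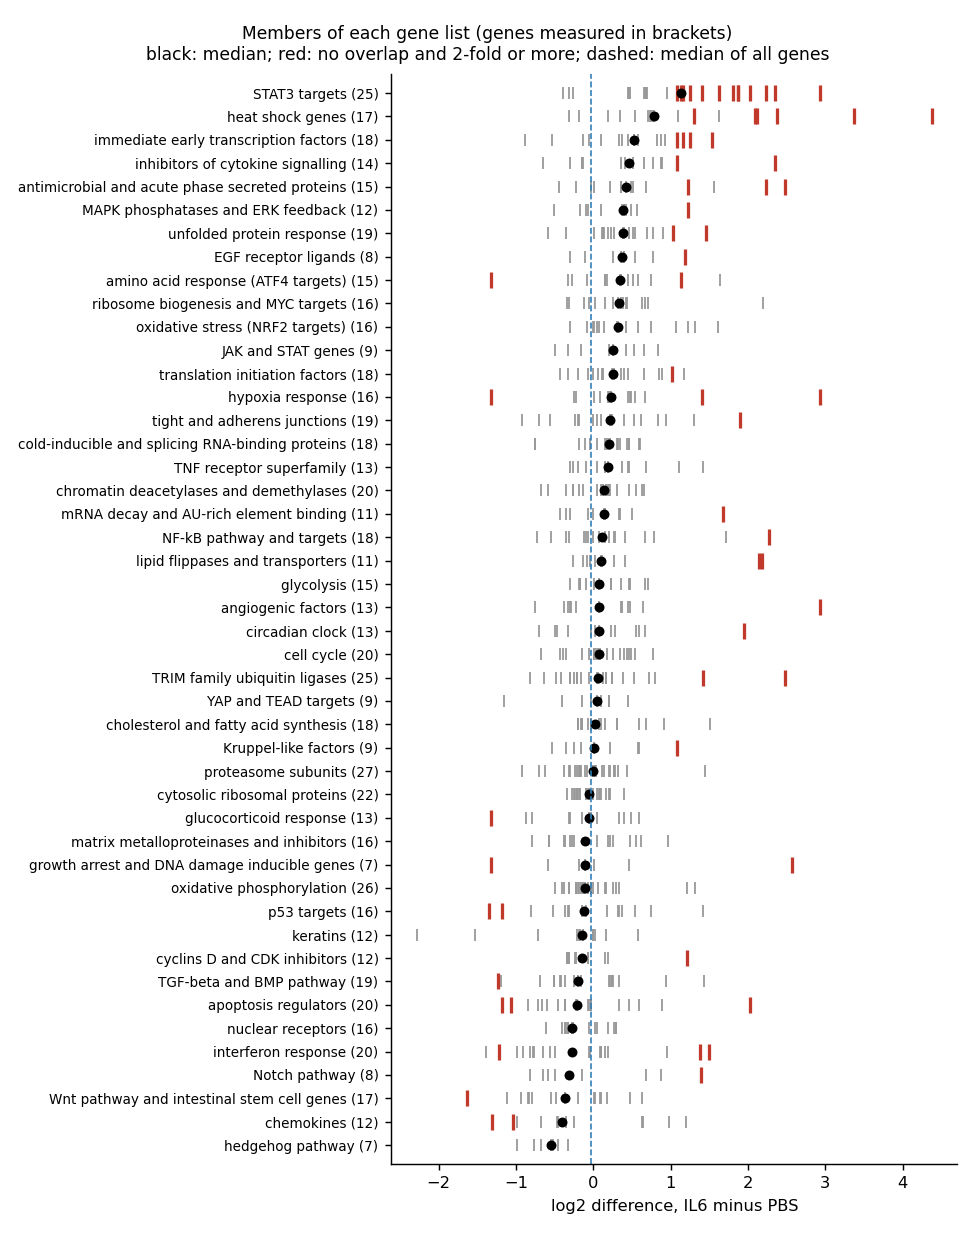
Log2 differences, IL6 minus PBS (horizontal axis), of the measured members of each gene list with at least 7 measured genes (rows, with the number measured). Black points are medians, red ticks members that met the size rule and the dashed line the median of all genes, -0.03; STAT3 targets (1.13) and heat shock genes (0.79) have the highest medians.

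The 4 genes that were lower in the 9-array fit belong to different systems. Ascl2, a Wnt-responsive transcription factor of intestinal stem cells, had log2 signals of 7.07, 7.01 and 6.85 with PBS and 5.24, 5.84 and 4.94 with IL6, where 2 of 3 arrays detected it. All PBS arrays were more than 1 log2 unit above all IL6 arrays, a difference of -1.64 ± 0.26 (adjusted p = 0.161 on 6 arrays and 0.0294 on 9), with a second probe at -0.90, and the call held in 2 of 9 repeats. Ddit4, an inhibitor of mTORC1 induced by hypoxia and glucocorticoids, was almost equal on the PBS arrays, at 10.59, 10.58 and 10.55, and lower on each IL6 array, at 9.52, 8.85 and 9.37. The difference was -1.32 ± 0.23 (adjusted p = 0.0428 on 9 arrays), and it passed in 1 of 9 repeats that left out 1 array.

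Gja4, which encodes connexin 37 of the gap junctions of arterial endothelium, stood at 7.65, 7.65 and 7.96 with PBS and 6.39, 6.11 and 6.37 with IL6. The groups lay apart, with a difference of -1.46 ± 0.20 (adjusted p = 0.0814 on 6 arrays and 0.0109 on 9), and the call held in 7 of 9 repeats. Gja5, of connexin 40, found in the same vessels, was lower without overlap, with a difference of -0.71 ± 0.30 (adjusted p = 0.485) whose sign reversed without scaling, and the other 3 measured connexins overlapped. The unannotated transcript A830030H10RIK stood at 11.10, 11.79 and 10.84 with PBS and 9.75, 9.18 and 9.75 with IL6. Its groups did not overlap, with a difference of -1.68 ± 0.30, and the call held in 2 of 9 repeats.

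LOC381904, also unannotated, had the smallest p of the lower genes on the 6 arrays. It stood at 7.04, 7.61 and 8.02 with PBS and 5.16, 5.36 and 5.22 with IL6, where 2 of 3 arrays detected it. The groups lay apart, with a difference of -2.31 ± 0.27 (adjusted p = 0.0734). It did not pass the 9-array fit (adjusted p = 0.184), in which the IL11 arrays were spread over 5.10, 7.04 and 8.04.

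In the Wnt list Ascl2 was alone in meeting the size rule among 17 measured members, whose median was -0.37, or -0.23 against PBS replicate 1. In the Notch list the ligand gene Dll1 was 1.39 ± 0.39 higher, while Nrarp and Hey1, transcriptional targets of Notch, differed by -0.82 ± 0.22 and -0.59 ± 0.20, each without overlap and with adjusted p of 0.417 to 0.45. The signs of Nrarp and Hey1 reversed without scaling, to 0.0234 and 0.228, under the median of all genes there, 0.70. Id3, a target of BMP signalling, stood at 8.10, 8.59 and 8.22 with PBS and 7.03, 7.96 and 6.23 with IL6, apart but wide (-1.23 ± 0.42, adjusted p = 0.45). The p53 targets Bbc3, of the pro-apoptotic protein PUMA, and Sesn1, of a stress-induced mTORC1 regulator, differed by -1.19 ± 0.33 and -1.35 ± 0.36 without overlap (adjusted p = 0.417), or by -1.02 and -0.54 from PBS replicate 1. A second Bbc3 probe, close to background, gave -0.03 and a second Sesn1 probe -0.60.

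Of 16 measured nuclear receptor genes 0 met the size rule and 5 were lower without overlap, where 9.22% of all genes were lower without overlap. These 5 differed by -0.62 to -0.34, and the median of the list was -0.27, or -0.09 against PBS replicate 1. Sgk1, a glucocorticoid-induced kinase gene, differed by -0.80 ± 0.25 without overlap, again with a sign that reversed without scaling. The ubiquitin ligase gene Fbxo32, known for muscle wasting, stood at 7.30, 8.16 and 9.10 with PBS and 6.10, 6.59 and 6.21 with IL6, a difference of -1.88 ± 0.43 (adjusted p = 0.38), or -0.99 from PBS replicate 1, with a second kept probe at -1.01. Depp1, a target of FOXO transcription factors listed as 8430408G22RIK, differed by -1.48 ± 0.35, Zfp763, listed as 1700065O13RIK, by -1.67 ± 0.40, and Zeb2, a repressor of epithelial genes, by -1.53 ± 0.37. A second kept Zfp763 probe gave -0.35. For Zeb2 the difference from PBS replicate 1 was -1.60.

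The lower genes included some of macrophages and antigen presentation. C1qc, a chain of complement C1q made by macrophages, had log2 signals of 7.80, 8.98 and 8.39 with PBS and 6.61, 7.41 and 6.24 with IL6. The groups did not overlap, with a difference of -1.64 ± 0.39 (adjusted p = 0.407). H2-Eb1, of an MHC class II chain, stood at 9.39, 10.91 and 10.51 with PBS and 8.57, 9.08 and 8.12 with IL6 (-1.68 ± 0.43, adjusted p = 0.411), and differed by -0.79 from PBS replicate 1. H2-DMa (-1.62), H2-Ab1 (-1.04), C1qa (-1.36), Aif1 (-1.18) and the receptor gene Csf1r (-0.88) were lower without overlap as well. In a bulk sample fewer cells of a type cannot be told apart from less RNA per cell.

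The marker list of macrophages and monocytes had 11 measured members of 14 listed, of which 8 were lower and 3 higher. As lower, 3 met the size rule, where 0.695% of all genes did. The list had a median of -0.88, or -0.50 against PBS replicate 1. Its mean log2 signal was 7.58 to 8.05 on the PBS arrays and 6.95 to 7.40 on the IL6 arrays, which did not overlap. On the IL11 arrays, which share the same PBS controls, it was 6.59 to 7.31. Of the 5 measured genes of dendritic cells and MHC class II, 4 were lower and H2-Aa was higher by 2.06 with overlapping arrays (-0.57 from PBS replicate 1), at a mean level of 8.38 to 9.19 with PBS and 7.99 to 8.86 with IL6.

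Markers of muscle and vessels were also mostly lower with IL6. All 7 measured smooth muscle markers were lower and 0 met the size rule, with a median of -0.71, or -0.20 against PBS replicate 1. Their mean was 8.34 on PBS replicate 1 but 9.17 and 9.51 on PBS replicates 2 and 3, against 8.00 to 8.26 with IL6. Pdlim3, of an actin-binding protein of muscle, showed the same order of PBS arrays, at 8.28, 9.67 and 9.80, with 7.31, 8.06 and 7.60 with IL6 (-1.60 ± 0.43 in all, -0.63 from PBS replicate 1), and Mustn1 differed by -1.60 ± 0.38. Rgs5, a pericyte gene, differed by -1.25 ± 0.44, and Olfml3, of a secreted matrix protein, by -1.50 ± 0.37. Of 12 measured endothelial markers 9 were lower, 4 of them without overlap, where 9.22% of all genes were lower without overlap. The median of the list was -0.37, or -0.17 against PBS replicate 1. Its mean was 7.93 to 8.36 with PBS and 7.71 to 7.92 with IL6, so that the groups nearly touched. Vwf, the von Willebrand factor gene, differed by -0.78 ± 0.20 (adjusted p = 0.41), a sign that reversed without scaling. The list medians of macrophages, MHC class II and smooth muscle were negative with quantile normalization, with median scaling and without scaling. So were the list medians of B and plasma cells and of T and NK cells, which were positive against PBS replicate 1 (0.53 and 0.30). Those of the endothelial, Wnt, Notch, chemokine, interferon and nuclear receptor lists turned positive with median scaling (0.0199 to 0.205) and stayed under the median of all genes, 0.38.

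Some marker lists were high on single PBS arrays. The mean of 5 B and plasma cell markers was 12.05 on PBS replicate 2 against 7.56 and 8.89 on the other PBS arrays and 7.55 to 8.67 with IL6. For 3 T and NK cell markers it was 7.21 on PBS replicate 2 against 4.85 and 5.48 on the other PBS arrays. With IL6 it was 5.07 to 5.30. The mean of 6 squamous forestomach markers was 9.44 on PBS replicate 3 against 7.49 to 7.53 on the other PBS arrays and 7.25 to 7.98 with IL6. The part of these cell type markers in the higher and lower genes was not tested. Of 9 measured fibroblast markers 7 were lower, 1 of them without overlap, close to the 9.22% of all genes that were lower without overlap. The mean of the fibroblast list overlapped between the groups.

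**Figure D4:**
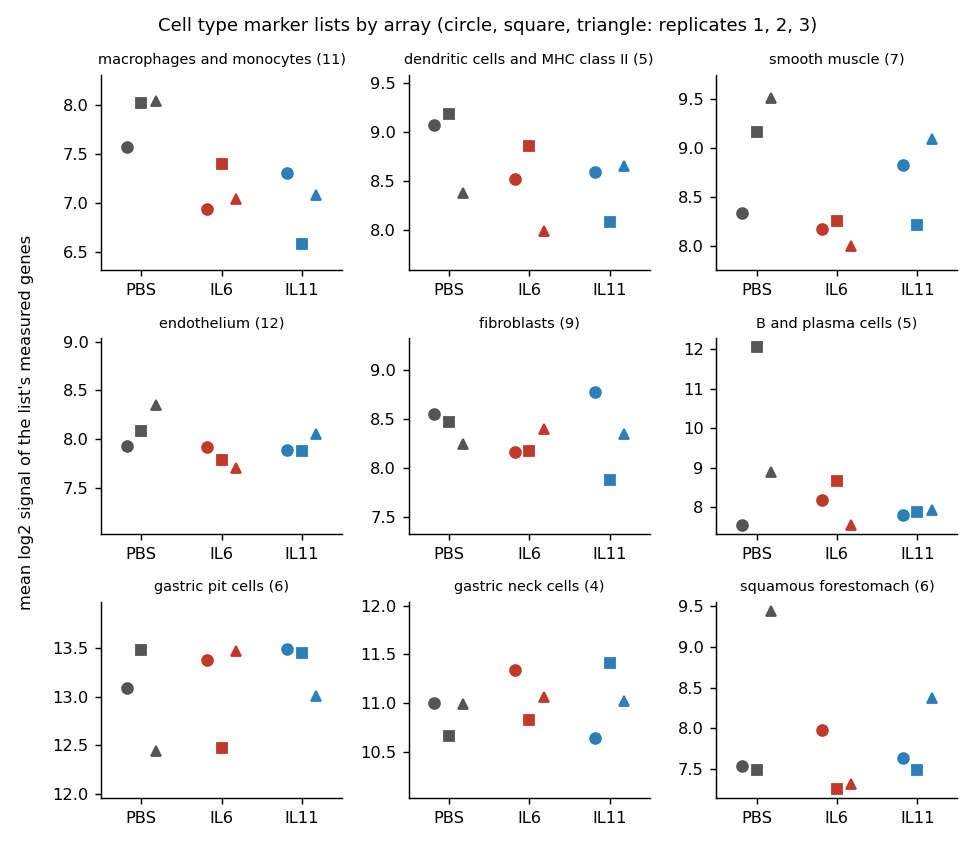
Mean log2 signal (vertical axes) of the measured genes of 9 cell type marker lists on each array, for PBS, IL6 and IL11; each point is 1 array. PBS replicate 2 stands out in B and plasma cells (12.05), PBS replicate 3 in squamous forestomach (9.44), and both in smooth muscle.

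**Figure D5:**
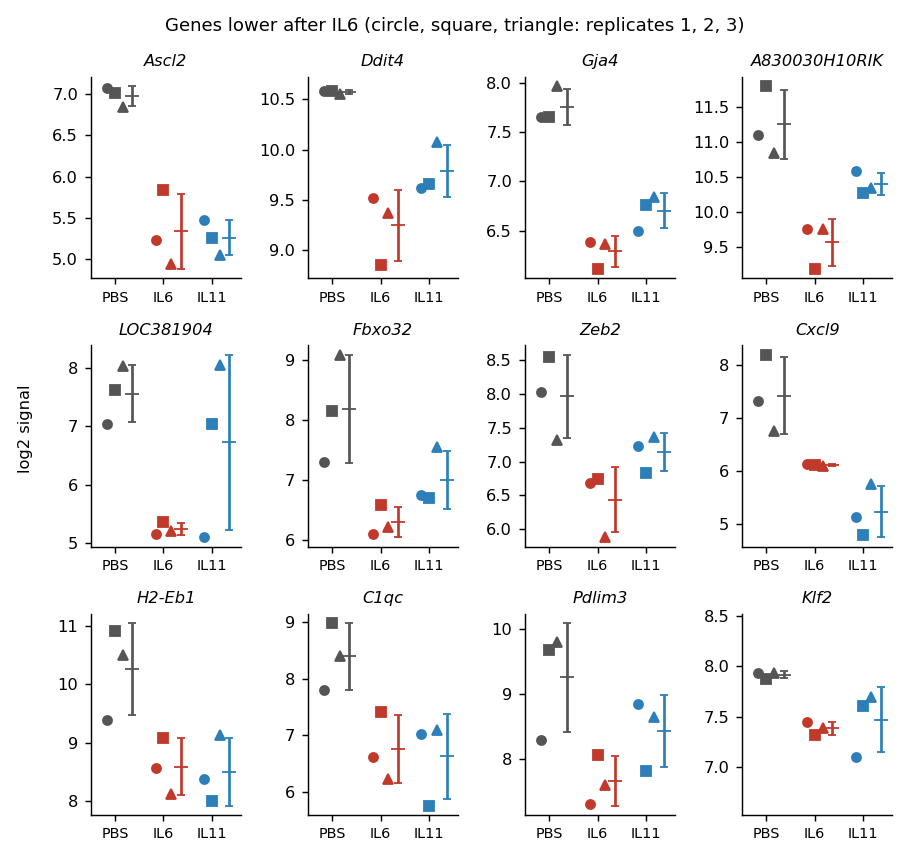
Log2 signal (vertical axes) of 12 genes that were lower after IL6, by array, for PBS, IL6 and IL11, with the mean and SD (n = 3) of each group as a bar beside the points. The PBS arrays lie above the IL6 arrays in every panel, closely grouped for Ddit4 and Klf2 and widely for Fbxo32 and H2-Eb1.

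The IL11 arrays, compared with the same 3 PBS arrays, give the levels of the leading genes side by side, with no test of the difference between the cytokines made here. Hspa1b stood at 5.90, 7.21 and 7.20 with IL11, where 1 array lay within the PBS range, against 8.80 to 9.54 with IL6. Dnajb1 stood at 12.19, 12.14 and 12.38, between the PBS and IL6 arrays. Pim3 (12.78, 13.11 and 12.96), Icam1 (10.48, 10.57 and 10.38) and Gadd45g (12.73, 13.02 and 12.88) were likewise above all PBS arrays and below all IL6 arrays. Gramd3 (9.29, 9.49 and 9.60) and Ascl2 (5.48, 5.26 and 5.05) lay within or across the range of the IL6 arrays.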

How the data were processed

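Total RNA of 3 PBS and 3 IL6 tumours was hybridised to Illumina bead arrays (MouseWG-6 v2.0), 1 array per mouse. The deposited intensity values are mean bead signals per probe that BeadStudio 3.4.0 wrote without normalization, per the file headers. Beside each stands a deposited detection value, a fraction that increased with signal (Spearman rho 0.985 or more per array) and was taken as 1 minus a detection p. The authors' own table holds normalized values taken as log2, since its highest value, 14.63, matched the mean highest log2 signal of the arrays; lumi and Partek are named without versions per the submitters' processing notes, and its rows could not be matched to probes, so it served for counts only.

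Signals of all 9 arrays were background-corrected, quantile-normalized and log2-transformed with neqc (offset 16) in limma 3.58.1 under R 4.3.3. Probes with a detection value of 0.95 or more on at least 3 of the 6 arrays were kept. The brightest kept probe stood for each of 3920 genes with several. Of kept probes, 12541 carried a current RefSeq symbol, 209 were named by gene ID, 3351 through an older symbol, while 1802 are called as in the file. The main test was lmFit and eBayes on the 6 arrays with a mean per group, two-sided, with Benjamini-Hochberg adjustment over 12380 genes. The median SE of a difference was 0.25 on the log2 scale with 7.46 degrees of freedom, and the number of arrays limits the precision. An exact permutation test of 3 against 3 cannot go below p = 0.1 and was not used. P-values measure the spread between these mice.

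The comparison, the 50 response lists and the 23 marker lists were chosen with earlier results of these data known. Genes were named as up to 15 with the largest differences in each direction, among those past the threshold and then those meeting the size rule with an unadjusted p under 0.01, as up to 4 members per list with the smallest p, and always Socs3, Stat3, Il6st, Il6ra and Hspa1a. Bcl6, Pde12, Sh3bp2, Gramd3, Tha1, Sema6b, Sbno2, Itpkc, Fastkd3, Lratd1, Tnip2, Tlr4, Mcl1, Fos, Hsp90aa1, Ptpn6, Usp18, Isg15 and Irf7 lie outside that rule and were chosen after their values were seen, as were the genes whose upstream bases are shown. Lists are described by counts and medians and were not tested. Alternatives covered the arrays in the fit, background, scaling, probe filter and choice, replicate block, weights, moderation and left-out arrays.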

Additional observations from a re-analysis of the deposited data

How the results depend on the processing

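Against 2 genes past the threshold on 6 arrays, the count was 36 with all 9 arrays, 12 without background correction, 12 with an offset of 50, 40 with median scaling, 810 without scaling, 1 without a probe filter, 8 with detection on all 6 arrays, 4 with probe means, 5 with each probe on its own, 14 with array weights, 18 with trended robust moderation, 19 at an adjusted p under 0.10, and 1 with arrays centred on the genes tested. Leaving out 1 array gave 0 to 30, and the counts of 0 (PBS replicate 2 or IL6 replicates 1 or 3 left out) stood beside 845, 752 and 603 genes at an unadjusted p under 0.05 in limma. A pairing of the tumours by replicate number was not seen (correlations of same-numbered deviations 0.215, -0.0354 and -0.14, and not every array correlated best with its own number). With 3 arrays per group these correlations are too few to exclude a pairing. With the replicate block the count was 0, with 1116 genes at an unadjusted p under 0.05.

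The size rule, met by 252 genes, was met by 107 without background correction, 154 with an offset of 50, 1057 with median scaling, 2565 without scaling, 112 probes of the authors' values, 1211 at a limit of 0.5, and 201 to 1003 with 1 array left out. The 36 calls of the 9-array fit became 1 to 567 with 1 array left out and 11 without PBS replicates 2 and 3, alternatives chosen after seeing the data, as was the centring on genes tested.

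Of 2137 differences of 102 genes, 18 changed sign, in 12 genes. With median scaling Il6ra was 0.025 and Il11ra1 0.0257. Without scaling Il6ra was 0.347, Il11ra1 0.348, Gja5 0.0874, Nrarp 0.0234, Hey1 0.228, Vwf 0.083, Klf2 0.32, Sgk1 0.042, Irf7 0.116 and Ptpn6 0.197. These values lay under the median of all genes, which was 0.38 with median scaling and 0.70 without scaling. Il11, at 0.674 as reported, ran from -0.368 to 1.86 with 1 array left out (-0.0812 without IL6 replicate 1) and was -1.71 without PBS replicates 2 and 3, where Il11ra1 was 0.0847, Ptpn6 0.064 and H2-Aa -0.565. Of 1406 list medians, 1227 moved by less than the spread between arrays and 179 by more, 104 of these under the 2 changes of scaling; the cause was not tested. No slide is given in the sources used here, so a slide block was not run, and named genes and lists were not run on the authors' values.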
